A study of Tabanus nipponicus with 3 samples.

Results

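This account concerns the enzymes that split sugars and the proteins that carry sugars across membranes in the midgut of the horse fly Tabanus nipponicus. They were chosen by name: a unigene (a transcript put together from reads with no genome) was taken when the first title of its best protein hit named an amylase, maltase, alpha- or beta-glucosidase, sucrase, trehalase, galactosidase, mannosidase, myogenesis-regulating glycosidase, or a trehalose, sugar, glucose or hexose transporter. Titles of sugar nucleotide enzymes, spelling out the endoplasmic reticulum, of neutral alpha-glucosidases and of oligosaccharide enzymes were left out. The rule found 40 of 8039 unigenes, of which 20 had glycosidase names and 20 had transporter names. RNA was sequenced from the dissected midguts of 3 adult females, 1 library per fly, wild-caught and labelled wild type with no treatment, called fly 1, fly 2 and fly 3 here. All belong to 1 group, so levels and the spread between individuals are described and no conditions are compared. The sources used here give neither the flies' age nor their last meal.

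Female horse flies take both blood and plant sugars. In insects in general, starch is cut by alpha-amylase into short glucose chains, which maltases and other alpha-glucosidases of the gut lining split into single sugars that transporters move into the cell. Sugar then circulates in the blood as trehalose, a pair of joined glucose units that trehalase splits and that the facilitated transporter Tret1 carries. Galactosidases and mannosidases are better known from lysosomes and the Golgi, where they trim glycans.

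The label was checked against the names. Of the 40 unigenes, 3 were tubulin glutamylases, enzymes that add glutamate to tubulin, which hold the letters of amylase inside their name and have no known part in sugar digestion. A further member, ER degradation-enhancing alpha-mannosidase-like protein 3 (TRINITY_DN1968_c0_g1_i17), is named for a family that helps dispose of misfolded glycoproteins. No unigene was named beta-glucosidase, sucrase or lysosomal alpha-glucosidase under the rule. The 5 mannosidases and 2 galactosidases are not digestive by name alone. All best hits came from other flies and mosquitoes, 16 of them from the black soldier fly Hermetia illucens. Identity to the hit ran from 37.0% to 93.8%, with a median of 63.2%, against 65.5% over all unigenes, and 34 of the 40 reached 50%. The median length was 2454 bases, against 1831 over all unigenes, and in 22 of the 40 the alignment covered at least 90% of the hit.

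The deposited unit is FPKM, in which reads are divided by unigene length and by library depth. The values correspond to 31922570, 33797869 and 29308867 recovered reads in flies 1, 2 and 3. Fly 3 stood apart from the other libraries. Its values lay above the mean of the other flies by a median of 0.42 on the log2(FPKM + 1) scale over 7384 unigenes averaging 1 FPKM or more, against -0.05 in fly 1 and -0.33 in fly 2. Median-of-ratios scaling, which divides each library so that the typical unigene is level, used factors of 0.976, 0.838 and 1.27. It changed which fly was highest for 16 of the 40 unigenes, so an order of flies is named below only beside the scaled order or where the scaling kept it.

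The share of the midgut transcriptome held by all 40 unigenes was taken first, transporters and tubulin glutamylases included. The 40 unigenes held 1.397%, 1.411% and 1.76% of summed FPKM in flies 1, 2 and 3, a mean of 1.52% ± 0.204 (SD, n = 3), and 1.52% ± 0.203 without the tubulin glutamylases. As a share of reads, which weights long unigenes more, they held 2.52% ± 0.357. Without the 10 most abundant unigenes of the table, 1 of which is a member, the share was 1.29%, 1.21% and 1.198%. Glycosidases held 1.41% ± 0.184 and sugar transporters 0.110% ± 0.0225 (SD, n = 3).

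A handful of unigenes carried nearly all of this. The 5 most abundant members were the same in each of the 3 flies and held 90.02%, 91.3% and 93.8% of the members' summed FPKM. They were myogenesis-regulating glycosidase-like (TRINITY_DN797_c0_g1_i2), a pair of unigenes named maltase A3, alpha-amylase-related protein-like and the trehalose transporter Tret1. The first of them alone held 38.5%, 47.2% and 48.6% of it. In all, 6 members averaged 100 FPKM or more, 17 lay between 10 and 100 and 17 lay under 10. Of the 40, 7 ranked among the most abundant 10% of all unigenes and 2 among the least abundant 10%. An FPKM of 1 was reached in all 3 flies by 30 members (75.0%), against 81.6% of all unigenes.

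**Figure D1:**
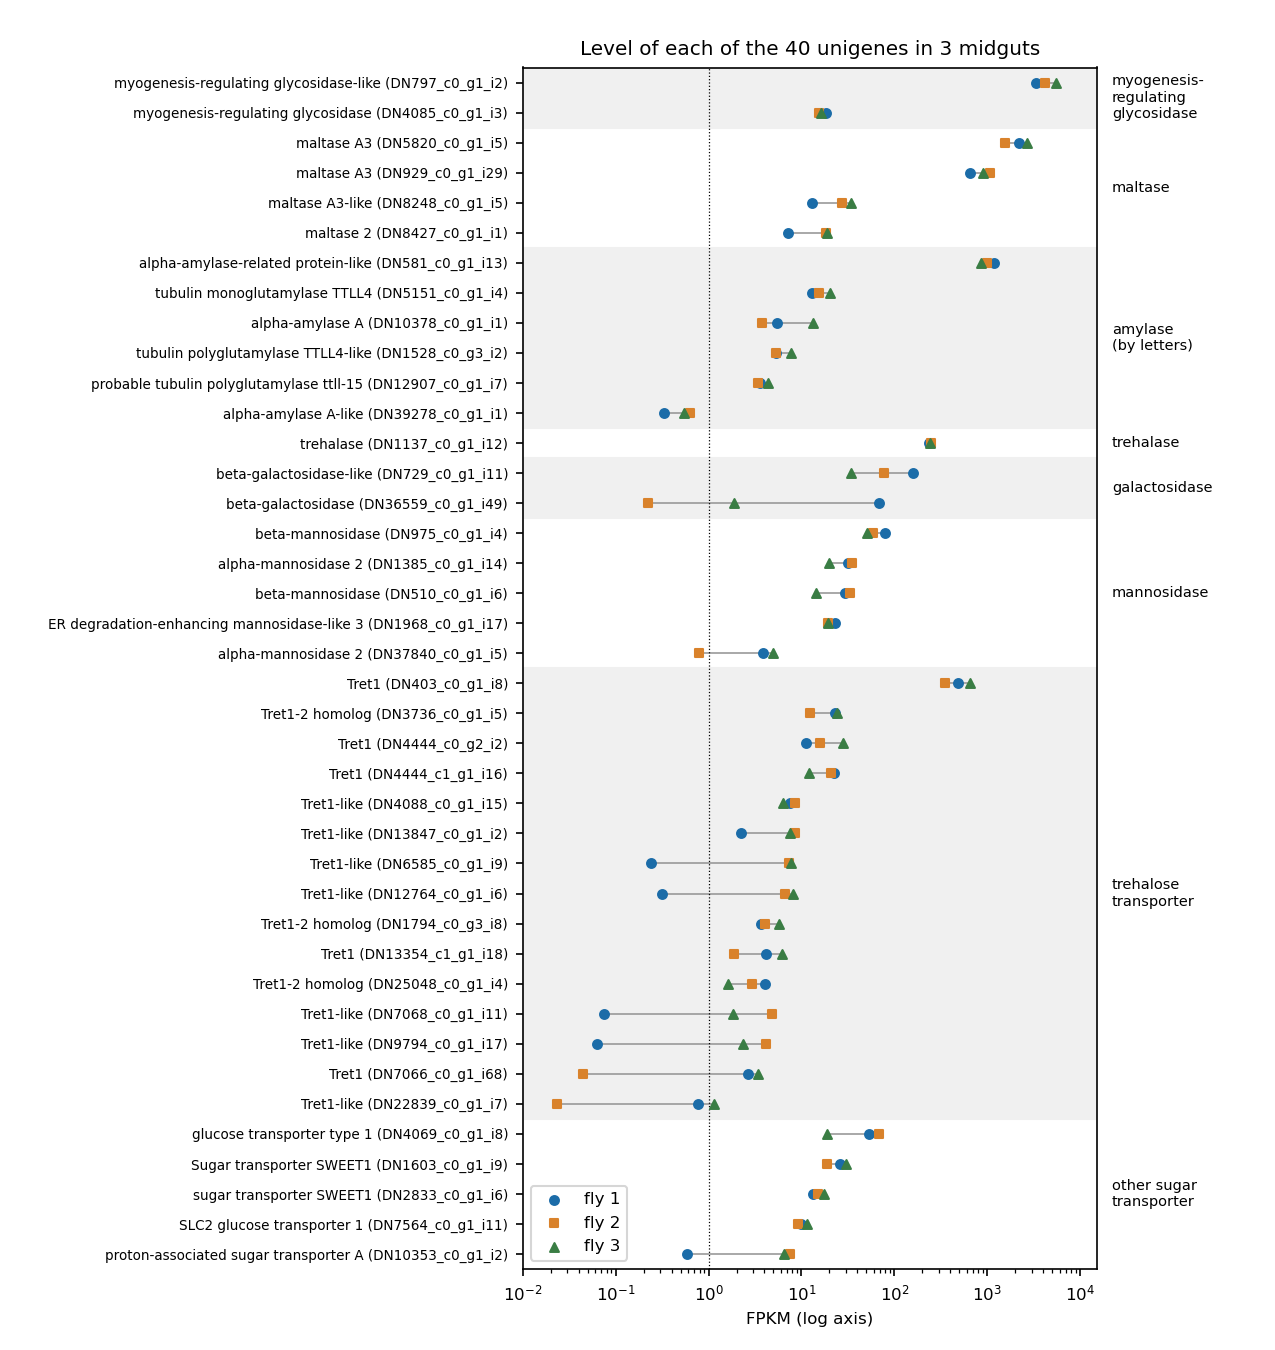
FPKM on a log axis for each of the 40 unigenes, one row each, grouped by class, with a point per fly, a grey line from lowest to highest fly and a dotted line at 1 FPKM. The 5 most abundant rows sit at the right edge in every fly, and the beta-galactosidase at 67.7, 0.224 and 1.90 FPKM in flies 1, 2 and 3 has one of the longest lines.

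Myogenesis-regulating glycosidase-like (TRINITY_DN797_c0_g1_i2, 2700 bases) was the most abundant member in every fly, at 3384, 4237 and 5480 FPKM in flies 1, 2 and 3 and 4367 ± 1054 on average (SD, n = 3). It ranked 10 among all 8039 unigenes by mean FPKM. The name comes from a mammalian glycosidase studied in muscle and brain. With 49.3% identity over 90.4% of the hit, a protein of Hermetia illucens, the sugar it acts on in the horse fly is not known from the name. Its highest fly was fly 3 as deposited and fly 2 after median-of-ratios scaling, at 3466, 5057 and 4328, so no order of flies is drawn from it. The other unigene of this name (TRINITY_DN4085_c0_g1_i3), with 69.9% identity, was at 18.5, 15.5 and 16.4 FPKM. It was one of the steadiest members as deposited, with an SD of 0.12 on the log2(FPKM + 1) scale. Scaling widened its range in FPKM + 1 from 1.18-fold to 1.42-fold.

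Maltases split maltose and related short sugars into glucose. The 4 maltase names held 0.458%, 0.418% and 0.568% of summed FPKM in flies 1, 2 and 3, a mean of 0.481% ± 0.0775 (SD, n = 3). Maltase A3 (TRINITY_DN5820_c0_g1_i5) was at 2211, 1550 and 2694 FPKM in flies 1, 2 and 3. The second maltase A3 (TRINITY_DN929_c0_g1_i29) was at 653, 1063 and 897 FPKM. The flies thus stood in a different order for these like-named unigenes, of which the first exceeded the second 3.39-fold, 1.46-fold and 3.00-fold within flies 1, 2 and 3. Such a ratio within a fly does not depend on how libraries are scaled.

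The remaining maltases were far lower. Maltase A3-like (TRINITY_DN8248_c0_g1_i5) was at 13.1, 27.4 and 34.3 FPKM in flies 1, 2 and 3. Maltase 2 (TRINITY_DN8427_c0_g1_i1) was at 7.14, 18.4 and 19.0 FPKM. Both were lowest in fly 1, also after scaling, and their highest and lowest fly differed 2.50-fold and 2.45-fold in FPKM + 1. Alignments of the 3 unigenes named maltase A3 or A3-like covered 67.5%, 70.0% and 69.1% of their hits.

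Amylases begin the digestion of starch. Alpha-amylase-related protein-like (TRINITY_DN581_c0_g1_i13), named for a relative of amylase known from Drosophila, was at 1178, 997 and 850 FPKM in flies 1, 2 and 3. After scaling the values were 1207, 1190 and 672, with fly 3 still lowest and flies 1 and 2 close together. Alpha-amylase A (TRINITY_DN10378_c0_g1_i1), named for the classical enzyme, was at 5.47, 3.78 and 13.5 FPKM. The related protein exceeded it 215-fold, 264-fold and 63.1-fold within flies 1, 2 and 3. Alpha-amylase A-like (TRINITY_DN39278_c0_g1_i1) is a fragment of 375 bases that covers 24.0% of its hit. It rested on 4, 8 and 6 reads and is close to the floor of 3 fragments, or 6 reads, per fly, so no difference between flies was detectable at this depth. The 3 tubulin glutamylases were low and steady, the highest being tubulin monoglutamylase TTLL4 (TRINITY_DN5151_c0_g1_i4) at 12.96, 15.6 and 20.1 FPKM. The others were at 5.33, 5.27 and 7.78 FPKM (TRINITY_DN1528_c0_g3_i2) and at 3.55, 3.43 and 4.37 (TRINITY_DN12907_c0_g1_i7).

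Trehalase (TRINITY_DN1137_c0_g1_i12, 4949 bases, the longest member) was at 235, 250 and 242 FPKM in flies 1, 2 and 3. Its SD of 0.04 on the log2(FPKM + 1) scale was the smallest among the 29 members averaging 5 FPKM or more. That evenness depended on the scaling: after median-of-ratios scaling the values were 240, 298 and 191, a 1.56-fold range in FPKM + 1. Trehalase ranked sixth of the 40 members in each fly, below Tret1 (TRINITY_DN403_c0_g1_i8), which exceeded it 2.08-fold, 1.39-fold and 2.70-fold within flies 1, 2 and 3.

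Beta-galactosidases, which remove terminal galactose, held the most uneven share of the 8 classes, at 0.0357%, 0.0123% and 0.00559% of summed FPKM in flies 1, 2 and 3. Beta-galactosidase (TRINITY_DN36559_c0_g1_i49) was at 67.7, 0.224 and 1.90 FPKM in flies 1, 2 and 3, resting on 6563, 23 and 169 reads. It was high in fly 1 alone, and its highest and lowest fly differed 56.1-fold in FPKM + 1, or 55.5-fold after scaling. Beta-galactosidase-like (TRINITY_DN729_c0_g1_i11) was at 157, 77.8 and 34.0 FPKM, in the same order of flies after scaling. It differed 4.52-fold and exceeded the first 2.32-fold in fly 1, 347-fold in fly 2 and 17.9-fold in fly 3.

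Mannosidases trim mannose from glycans, the alpha-mannosidase 2 family in the Golgi and beta-mannosidase in lysosomes. Together the 5 held 0.0265%, 0.0232% and 0.0170% of summed FPKM in flies 1, 2 and 3. Beta-mannosidase (TRINITY_DN975_c0_g1_i4) was at 78.8, 58.9 and 50.7 FPKM and a second one (TRINITY_DN510_c0_g1_i6) at 29.8, 33.5 and 14.3. Alpha-mannosidase 2 (TRINITY_DN1385_c0_g1_i14) was at 31.6, 34.8 and 19.9 FPKM. All 3 were lowest in fly 3, also after scaling. ER degradation-enhancing alpha-mannosidase-like protein 3 was at 22.7, 19.4 and 19.1 FPKM, and the other alpha-mannosidase 2 (TRINITY_DN37840_c0_g1_i5) at 3.81, 0.784 and 4.97.

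**Figure D2:**
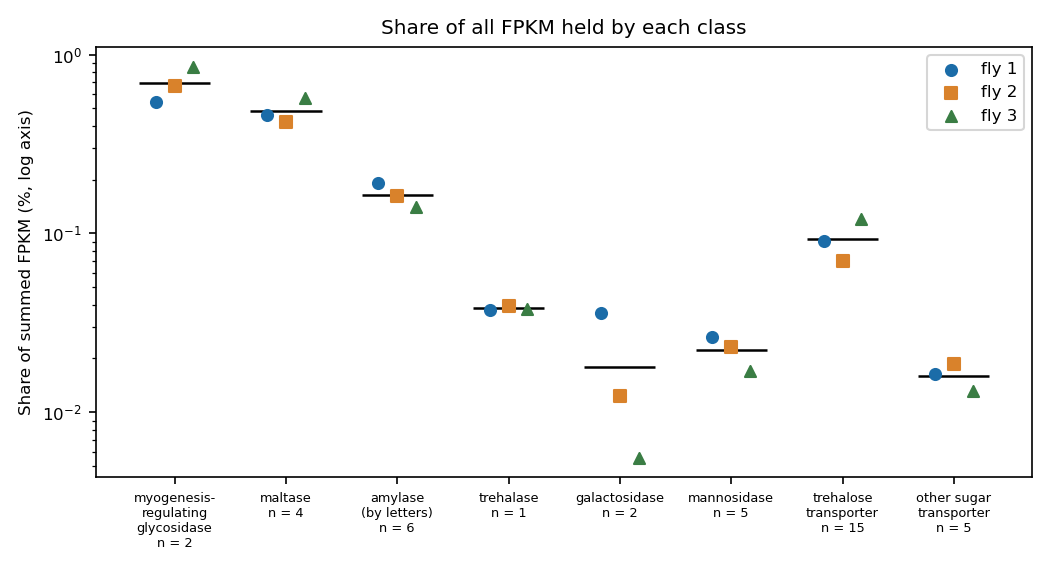
Share of all summed FPKM on a log axis for each class of name, with a point per fly and a line at the mean of the 3 flies. The 2 myogenesis-regulating glycosidases (0.689% on average) and the 4 maltases (0.481%) stand highest, and the 2 galactosidases are spread most widely, at 0.0357%, 0.0123% and 0.00559% in flies 1, 2 and 3.

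Transporters were many, and 1 stood far above the rest. Mean FPKM had a median of 5.60 over the 20 transporters, against 8.69 over all unigenes. The 15 trehalose transporter names held 0.0907%, 0.0699% and 0.120% of summed FPKM in flies 1, 2 and 3. Tret1 (TRINITY_DN403_c0_g1_i8), at 489, 347 and 655 FPKM, accounted for 85.6%, 78.0% and 85.0% of that class. It was lowest in fly 2 also after scaling. Scaled values were 501, 414 and 517 in flies 1, 2 and 3, so flies 1 and 3 then lay close together. This Tret1 exceeded the next, Tret1-2 homolog (TRINITY_DN3736_c0_g1_i5, at 23.0, 12.3 and 24.0 FPKM), 21.3-fold, 28.2-fold and 27.3-fold within flies 1, 2 and 3. The 12 beyond the 3 most abundant had mean FPKM values between 0.643 and 18.3, and 11 of the 15 averaged under 10. Among them Tret1-like TRINITY_DN4088_c0_g1_i15 was one of the steadiest members as deposited, at 7.54, 8.49 and 6.36 FPKM. Its SD was 0.18 on the log2(FPKM + 1) scale. After scaling its values were 7.72, 10.1 and 5.02 in flies 1, 2 and 3, a 1.85-fold range in FPKM + 1. Tret1-like TRINITY_DN13847_c0_g1_i2, at 2.26, 8.60 and 7.46 FPKM, was lowest in fly 1 also after scaling. A further 3 named Tret1 or Tret1-2 homolog were at 3.63, 4.04 and 5.67 FPKM (TRINITY_DN1794_c0_g3_i8), at 4.17, 1.88 and 6.22 (TRINITY_DN13354_c1_g1_i18) and at 4.01, 2.97 and 1.63 (TRINITY_DN25048_c0_g1_i4).

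Another pair of unigenes named Tret1 differed in which fly was lowest. The first (TRINITY_DN4444_c0_g2_i2) was at 11.1, 15.98 and 27.9 FPKM in flies 1, 2 and 3, and the second (TRINITY_DN4444_c1_g1_i16) at 22.2, 20.6 and 12.1. The first was lowest in fly 1 and the second in fly 3, also after scaling. Their ratio within a fly was 0.500, 0.775 and 2.30. The first aligned to 43.5% of a Culex quinquefasciatus protein with 91.5% identity and the second to 97.8% of a Hermetia illucens protein with 69.4%. How reads common to similar transcripts were assigned is not given, so the split between this pair is uncertain.

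The 5 other sugar transporters held 0.0164%, 0.0186% and 0.0132% of summed FPKM in flies 1, 2 and 3. Glucose transporter type 1 (TRINITY_DN4069_c0_g1_i8), named for the family of facilitated glucose carriers, was at 53.5, 67.8 and 18.9 FPKM, the highest being in fly 2 and the lowest in fly 3 also after scaling. It differed 3.46-fold in FPKM + 1 as deposited and 5.15-fold after scaling. A pair of unigenes named SWEET1, a sugar carrier of another family, were at 25.7, 18.7 and 30.1 FPKM (TRINITY_DN1603_c0_g1_i9) and at 13.3, 15.2 and 17.7 (TRINITY_DN2833_c0_g1_i6). Solute carrier family 2, facilitated glucose transporter member 1 (TRINITY_DN7564_c0_g1_i11) was steady, at 9.98, 9.23 and 11.3 FPKM. Proton-associated sugar transporter A (TRINITY_DN10353_c0_g1_i2) was at 0.579, 7.46 and 6.42 FPKM.

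Summed levels of the classes were compared within each fly. Glycosidases exceeded sugar transporters 12.04-fold, 14.9-fold and 12.2-fold in flies 1, 2 and 3, a mean log2 ratio of 3.70 ± 0.17 (SD, n = 3). Maltases exceeded amylases, with the tubulin glutamylases counted as the rule has them, 2.39-fold, 2.59-fold and 4.07-fold, and the mean log2 ratio of 1.55 ± 0.41 was 1.59 ± 0.43 without those 3 (SD, n = 3). Maltases exceeded galactosidases and mannosidases together 7.37-fold, 11.8-fold and 25.2-fold, at a mean log2 ratio of 3.70 ± 0.89. Trehalose transporters exceeded other sugar transporters 5.54-fold, 3.76-fold and 9.13-fold, at 2.52 ± 0.64 (SD, n = 3). This last ratio depended on how a class was summarised. Without the most abundant unigene of each class, Tret1 (TRINITY_DN403_c0_g1_i8) among them, it was 0.83 ± 0.11 on the log2 scale and above 0 in 3 of 3 flies, while for the median unigene of each class it was -1.51. The sizes of the other ratios moved too, with no change of direction. Glycosidases over sugar transporters came to 2.76 with hits of 50% identity or more, 1.87 for the median unigene and 4.52 without the most abundant of each class. Maltases over amylases, with the tubulin glutamylases still counted, came to 6.10 for the median unigene and 4.74 without the most abundant. Tubulin glutamylases made up most of the amylase class once its most abundant unigene was left out. They also enter the median of that class, so neither value is a ratio to alpha-amylase names alone. Maltases over galactosidases and mannosidases came to 2.51 without the most abundant. Each of the 4 ratios had its direction in 3 of 3 flies and an exact two-sided sign-flip permutation p of 0.25, or 0.25 after Benjamini-Hochberg adjustment over the 4. With 3 flies no smaller p can be had, so 0.05 was out of reach.

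**Figure D3:**
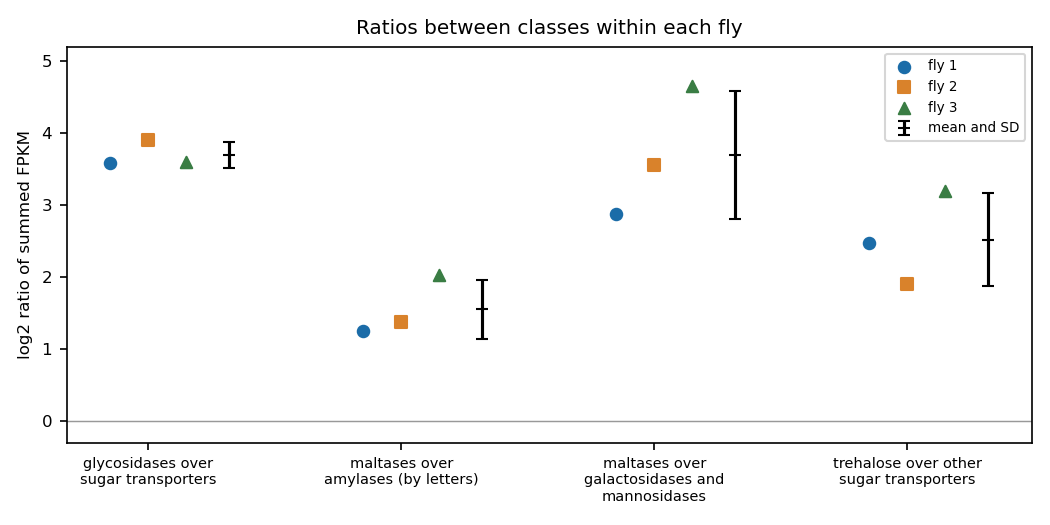
Log2 ratio of summed FPKM between classes within each fly, with a point per fly and the mean and SD over the 3 flies beside them. All points lie above 0, and the ratio of glycosidases to sugar transporters is the tightest, between 3.59 and 3.90.

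The spread between flies was described next, without a test, since each fly is 1 library. A unigene averaging 5 FPKM or more was called variable if FPKM + 1 in its top fly was 4 or more times that in its bottom fly. Of the 29 members at that level 4 were variable (13.8%), against 9.42% of 5256 unigenes. They were both beta-galactosidases, highest in fly 1, and the Tret1-like unigenes TRINITY_DN6585_c0_g1_i9 and TRINITY_DN12764_c0_g1_i6, lowest in fly 1, with the top value in fly 3 as deposited and in fly 2 after scaling. Scaling left the count at 4 of 28, against 7.63% of all unigenes, but TRINITY_DN12764_c0_g1_i6 was no longer among them and glucose transporter type 1 (TRINITY_DN4069_c0_g1_i8) was. As deposited, 2 were top in fly 1, against 0.742% of all unigenes, none in fly 2, against 0.4%, and 2 in fly 3, against 8.28%, while 2 were bottom in fly 1, against 3.79%. With no filter on level, 8 of the 40 differed that much, against 9.33%. Both Tret1-like unigenes only just passed the filter, with means of 5.09 and 5.08 FPKM, and proton-associated sugar transporter A lay just outside it at 4.82. Without fly 1 no member was variable, without fly 2 there were 2 and without fly 3 there was 1, against 7.77%, 5.45% and 3.08% of all unigenes. At the even end, 8 of the 29 (27.6%) stayed within 1.5-fold, against 40.4%.

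**Figure D4:**
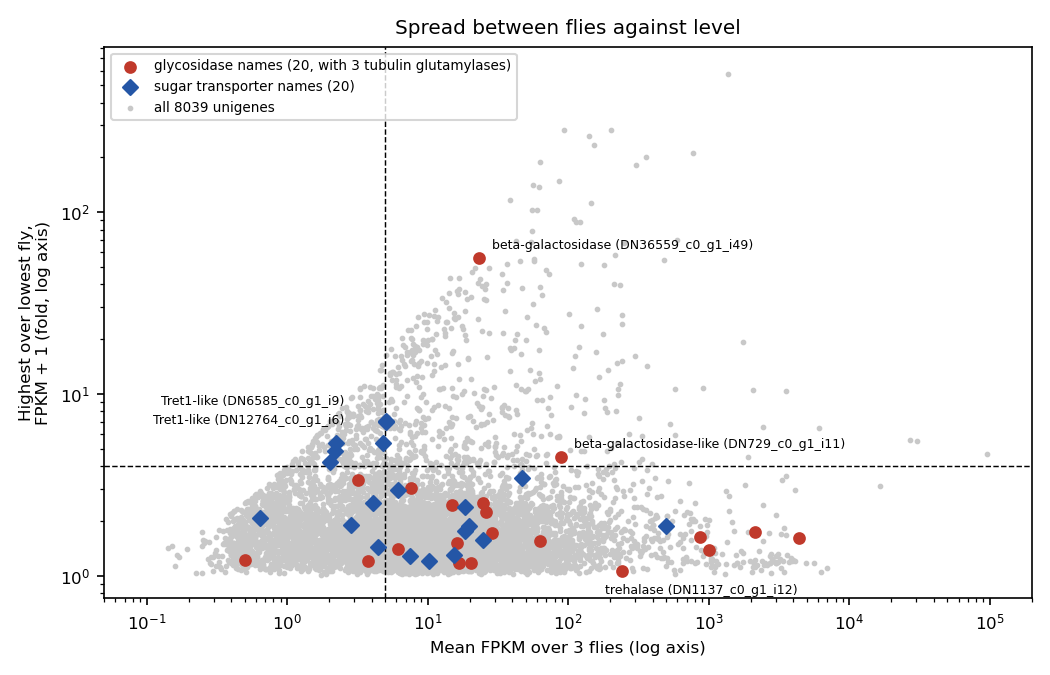
Highest over lowest fly in FPKM + 1 against mean FPKM, both on log axes, with glycosidase names in red, sugar transporter names in blue and all 8039 unigenes in grey, and dashed lines at a mean of 5 FPKM and at 4-fold. The 4 variable members lie in the upper right, led by beta-galactosidase (TRINITY_DN36559_c0_g1_i49) at 56.1-fold, and trehalase lies at the bottom at 1.06-fold.

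The variable Tret1-like unigenes belong to a set of low transporters that were nearly silent in fly 1. This grouping was chosen after the values were seen. An FPKM under 1 in fly 1 with at least 1 in both other flies was found for 5 of the 40 members (12.5%), against 3.37% of all unigenes, and all 5 are among the 20 transporters. They stood between 0.0626 and 0.579 FPKM in fly 1, between 4.17 and 7.46 in fly 2 and between 1.83 and 8.19 in fly 3. TRINITY_DN6585_c0_g1_i9 was at 0.239, 7.30 and 7.74 FPKM in flies 1, 2 and 3. TRINITY_DN12764_c0_g1_i6 was at 0.318, 6.73 and 8.19.

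The others of the set were Tret1-like TRINITY_DN7068_c0_g1_i11 at 0.0747, 4.76 and 1.83 FPKM, Tret1-like TRINITY_DN9794_c0_g1_i17 at 0.0626, 4.17 and 2.35, and proton-associated sugar transporter A. For the first pair named here the fly 1 value rested on 4 reads each, which is under the floor. TRINITY_DN12764_c0_g1_i6 and TRINITY_DN7068_c0_g1_i11 share 1 best hit and may share reads. Hit identity was under 50% in 4 of these 5, and in 6 of the 40 members. That each of the 5 was lowest in fly 1 follows from how they were chosen. After scaling, each was highest in fly 2.

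Names of other tissues also differed between flies. Of all 8039 unigenes, 6948, 6898 and 7637 reached 1 FPKM in flies 1, 2 and 3. Unigenes under 1 FPKM were thus fewest in fly 3 across the whole table, not only among these names. The 10 fat body names, which include the lipid carrier apolipophorin, vitellogenins, hexamerins and 1 vitellogenin receptor matched by letters, summed to 7.08, 24.7 and 97.6 FPKM in flies 1, 2 and 3. Of them 8, 6 and 3 were under 1 FPKM, and 1 vitellogenin-1-like (TRINITY_DN32326_c0_g1_i1) was at 0 in fly 1. The 11 names of Malpighian tubule, the insect's kidney, summed to 129.6, 188 and 302 FPKM, with 5, 3 and 0 under 1 FPKM and uricase (TRINITY_DN8991_c0_g1_i5) at 0.0450, 23.2 and 146. Without uricase the other 10 summed to 129.5, 165 and 156 FPKM, and the most abundant of them, a xanthine dehydrogenase (TRINITY_DN6180_c0_g1_i3), was lowest in fly 3, at 69.9, 88.7 and 57.9. Muscle names, 16 in all, summed to 461, 483 and 872 FPKM, with 1, 1 and 0 under 1 FPKM. Of these, 4 are non-muscle or unconventional myosins matched by letters, and the other 12 summed to 336.0, 365 and 758 FPKM. In bulk tissue, fewer cells of a type and less RNA per cell cannot be told apart, and the part of these tissues in the levels of the 5 transporters was not tested. Midgut names (holding trypsin, peritrophin or carboxypeptidase, 50 unigenes) summed to 10409.5, 11567 and 5923 FPKM, with 16, 14 and 3 under 1 FPKM. Some are matched by letters alone: antichymotrypsins, chymotrypsin inhibitors, a cytosolic carboxypeptidase-like protein and carboxypeptidase N subunit 2. The highest of these averaged 11.5 FPKM, and some were among those under 1 FPKM. Hemocyte names, 13 in all, summed to 67.7, 55.6 and 183 FPKM, with 6, 3 and 2 under 1 FPKM. The 18 salivary names summed to 14279, 9721 and 10984 FPKM with 1, 3 and 1 under 1 FPKM. Most of the 18 were matched only by letters, chiefly in titles of bacterial proteins, the highest of these averaging 43.6 FPKM. The single ovary name was at 3.28, 0 and 0.

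A smaller set was nearly silent in fly 2. Under 1 FPKM there and at least 1 in both other flies were 3 members (7.50%), against 3.46% of all unigenes. They were beta-galactosidase (TRINITY_DN36559_c0_g1_i49), alpha-mannosidase 2 (TRINITY_DN37840_c0_g1_i5) and Tret1 (TRINITY_DN7066_c0_g1_i68), the last at 2.68, 0.0444 and 3.38 FPKM with 4 reads in fly 2. Tret1-like (TRINITY_DN22839_c0_g1_i7) was under 1 FPKM in flies 1 and 2, at 0.769, 0.0234 and 1.14. Its fly 2 value rested on 2 reads, which is under the floor. In fly 3, no member met the same rule, against 0.46% of all unigenes.

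In fly 2 the members' median shift lay nearer to 0 than that of all unigenes as deposited, and above it after scaling. The median difference between a fly and the mean of the others, over the 38 members averaging 1 FPKM or more, came to -0.00, -0.02 and 0.45 for flies 1, 2 and 3 on the log2(FPKM + 1) scale. For all unigenes the medians were -0.05, -0.33 and 0.42. After median-of-ratios scaling the members' medians were 0.06, 0.38 and -0.01, against 0.02, 0.02 and -0.01 for all unigenes. Fly 1 was highest for 8 of the 40 members, against 21.3% of all unigenes, fly 2 for 11 (27.5%), against 12.3%, and fly 3 for 21 (52.5%), against 66.5%. Fly 1 was lowest for 16 of the 40, against 27.2%, fly 2 for 14, against 56.9%, and fly 3 for 10, against 15.9%. After scaling, 11, 23 and 6 members were highest in flies 1, 2 and 3, against 2102, 2631 and 3306 of the 8039 unigenes. The median SD between flies was 0.46 for the 38 members and 0.38 for all unigenes as deposited. After scaling it was 0.52 for the members and 0.32 for all unigenes. With 1 library per fly these are descriptions, and whether the members differ from other unigenes was not tested.

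**Figure D5:**
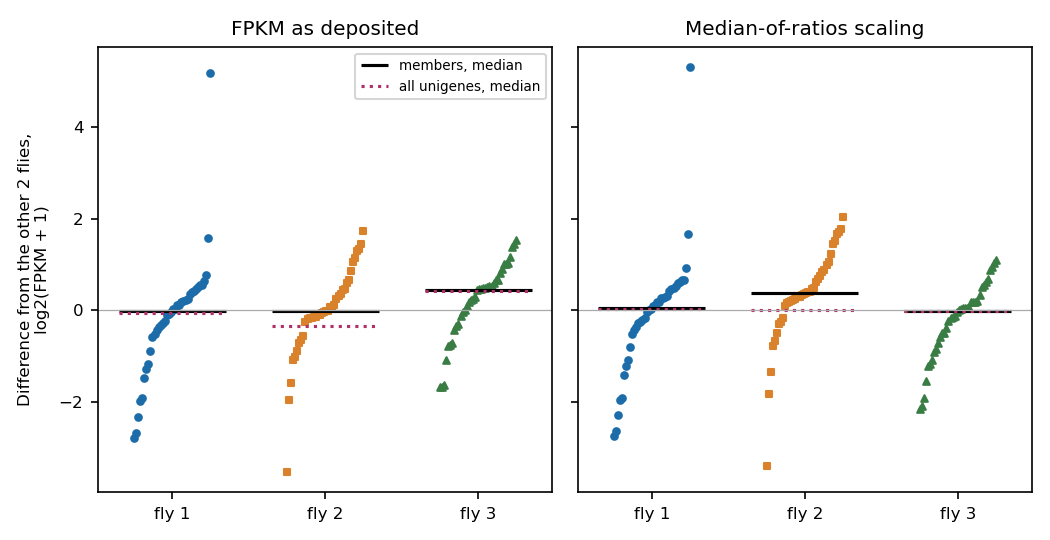
Difference of each fly from the mean of the other flies in log2(FPKM + 1), a point for each of the 38 members averaging 1 FPKM or more, as deposited on the left and after median-of-ratios scaling on the right, with solid lines for the members' medians and dotted lines for those of all unigenes. In fly 2 the solid line lies above the dotted one in both panels, at -0.02 against -0.33 and at 0.38 against 0.02.

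Levels of the members followed a like order from fly to fly. Across the 40 members Spearman's rho was 0.813 for flies 1 and 2, 0.822 for flies 1 and 3, and 0.922 for flies 2 and 3. The same pairs gave 0.925, 0.871 and 0.884 across all 8039 unigenes. Unigenes of 1 library share its depth, so these are descriptions.

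Other names of sugar handling gave 33 unigenes, of which 25 had a mean FPKM of at least 5. Of those 4 were variable by the rule above, all highest in fly 3, and 3 were after scaling. Over all unigenes 9.42% were variable, 435 of those 495 highest in fly 3, and 7.63% were after scaling. A pair of the 33 are false matches by letters or use, lariat debranching enzyme, which acts on RNA and is 1 of the 4, and ATP-dependent 6-phosphofructokinase of glycolysis. No sodium-coupled sugar carrier was matched by name. Sugar phosphorylation, the first step after uptake, was led by ADP-dependent glucokinase-like (TRINITY_DN6005_c0_g1_i11) at 21.7, 26.4 and 21.3 FPKM in flies 1, 2 and 3. Next came hexokinase type 2 (TRINITY_DN363_c0_g1_i11) at 20.6, 26.7 and 18.9, and the variable hexokinase HKDC1-like (TRINITY_DN2411_c0_g1_i2) was at 1.65, 10.2 and 21.5.

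Trehalose synthesis, which builds the blood sugar that trehalase splits, differed between flies more than trehalase did. The synthase (TRINITY_DN11379_c0_g1_i6) was at 5.37, 26.5 and 84.5 FPKM in flies 1, 2 and 3, a 13.4-fold range in FPKM + 1, and 10.4-fold after scaling. The phosphatase of the next step (TRINITY_DN3509_c0_g1_i2) was at 8.75, 10.7 and 26.2. Both were lowest in fly 1 and highest in fly 3, as were the summed fat body and muscle names above, and the Malpighian tubule names with uricase but not without it. Trehalose synthesis is best known from the fat body, and the part of these tissues in it was not tested.

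Stored and interconverted sugars were represented by several enzymes. Glycogen phosphorylase (TRINITY_DN6_c0_g1_i4), which releases glucose units from glycogen, was at 74.7, 107 and 102 FPKM in flies 1, 2 and 3, and the branching enzyme that builds glycogen (TRINITY_DN653_c0_g1_i1) at 19.0, 22.6 and 45.4. Sorbitol dehydrogenase-like (TRINITY_DN1363_c0_g1_i5), which turns sorbitol into fructose, was at 278, 313 and 199 FPKM. Galactose mutarotase (TRINITY_DN5126_c0_g1_i6), which flips galactose between its ring forms, was at 55.8, 64.7 and 78.8.

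Among other glycosidases, 9 unigenes, the leading ones were myrosinase 1-like (TRINITY_DN2550_c0_g1_i7) at 14.95, 11.5 and 17.8 FPKM and non-lysosomal glucosylceramidase (TRINITY_DN3249_c0_g1_i10) at 6.71, 10.8 and 11.9. The quality-control glucosidases of the secretory pathway, which the rule leaves out, held a contrasting pair. Neutral alpha-glucosidase AB (TRINITY_DN8322_c0_g1_i14) was at 108, 108 and 87.4 FPKM in flies 1, 2 and 3, while a second unigene of that name (TRINITY_DN1700_c0_g1_i5) was at 11.1, 17.9 and 157. The second was thus 0.103, 0.167 and 1.80 times the first within flies 1, 2 and 3.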

How the data were processed

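RNA from 3 midguts was sequenced from KAPA RNA HyperPrep libraries of total RNA, per the labels' protocols. The authors deposited FPKM values for 8039 unigenes with their lengths and best protein hits, and the percent of identical residues, per the file headers. Unigene names begin with TRINITY, after an assembly program. Aligner, counter and protein database are not given in the sources used. The column numbered 4 was matched to fly 3 through the label of that sample. FPKM times length summed to 1e+09 in each fly, so depth was recovered by dividing by the smallest product, leaving 97.1%, 97.3% and 97.3% of the unigenes whole to 0.001. Of the values 79.3%, 79.3% and 79.0% were even, so a fragment was taken as 2 reads and the floor as 3 fragments (6 reads), which allows for counting error alone.

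Logs are log2(FPKM + 1), on which low unigenes appear to differ less than they do. Tools were Python 3.11.15, NumPy 2.4.6, pandas 2.3.3 and SciPy 1.17.1. Since FPKM is no count, no count test was fitted. Names came from first titles only. Values are given in every fly for the 3 most abundant members of each class, all variable members, and the 5 members with the largest and the 5 with the smallest SD of the members averaging 5 FPKM or more, and for the 2 most abundant unigenes of each list of other sugar-handling names. Some others are named because few fell in their class or because their values stood out. Members, lists and classes were chosen with earlier results of these data known. The calls were tested on simulated data with counting error alone, in which changes larger than 4-fold were set in unigenes well above 5 FPKM. That simulation cannot show how the call behaves near its limits or with spread between flies. The labels call the 3 flies biological replicates of 1 group.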

Additional observations from a re-analysis of the deposited data

How the results depend on the processing

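The members' share of summed FPKM, 1.52% as reported, was 0.824% with best hits of 50% identity or more, 2.52% as a share of reads, 1.23% without the 10 most abundant unigenes, 0.836% without the most abundant member and 1.404 to 1.58% without 1 fly. Each of the lower values from leaving out unigenes lacks myogenesis-regulating glycosidase-like by construction. The 4 variable members were 2 with hits of 50% identity or more, 8 from a mean of 1 FPKM (all unigenes 10.2%), 2 with a pseudocount of 5 (5.99%), 11 at 2-fold (30.3%), 8 with no filter (9.33%) and 0 to 2 without 1 fly (3.08 to 7.77%). The members' median SD of 0.46 was 0.38 with a pseudocount of 5 and 0.31 to 0.42 without 1 fly. After median-of-ratios scaling it was 0.52, against 0.32 for all unigenes. Their median shift in fly 3, 0.45 on the log2 scale, was 0.25 with a pseudocount of 5 and 0.29 from a mean of 5 FPKM. It was 0.14 to 0.29 without fly 1 or fly 2. After median-of-ratios scaling the members' shift was close to level, at -0.0077, and that of all unigenes likewise went from 0.42 to -0.0052. The log2 ratio of trehalose transporters over other sugar transporters reversed to -1.51 with the median member. At 50% identity the Tret1-like variable members are left out by construction, with hit identities of 43.4% and 44.3%. The cause of the other changes was not tested. Both Tret1-like variable members fell under 4-fold with a pseudocount of 5 (2.43 and 2.48) and without fly 1 (1.05 and 1.19). A larger pseudocount, or leaving out a fly, can only keep or lower a unigene's fold, so the direction of these changes was fixed. No paired comparison of conditions was possible because all flies belong to 1 group. Depth limits the 5 members resting on under 6 reads in some fly, and 3 libraries limit every spread given.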
